A study of Mus musculus with 15 samples.

Results

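The vascular endothelial growth factor (VEGF) and angiopoietin systems, which act on blood vessels, were followed through the brains of adult mice in 10 genes. They were the VEGF receptors Flt1, Kdr and Flt4, the ligands Vegfa and Vegfb, the co-receptors Nrp1 and Nrp2, the angiopoietin receptors Tek and Tie1, and the ligand Angpt1. The genes were chosen by symbol, with measured values of these libraries already known, and each of the 10 matched 1 row among the 30386 gene identifiers in the count table. Differences seen in the vitamin-treated group were among those values, so values that involve that group are given as a description, without p-values for these 10 genes.

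VEGF-A binds the receptor tyrosine kinases VEGFR1 (Flt1) and VEGFR2 (Kdr) on endothelial cells. VEGFR2 carries most of the signal for endothelial growth and permeability, whereas VEGFR1 binds VEGF-A tightly, signals weakly and is also made as a soluble form that holds the ligand back. VEGF-B binds VEGFR1 and not VEGFR2, VEGFR3 (Flt4) answers to VEGF-C and VEGF-D, and the neuropilins present VEGF as well as class 3 semaphorins. Angiopoietin 1 activates TIE2 (Tek), which stabilises vessels, and TIE1 modulates TIE2 without a classical ligand of its own. In the brain the receptors sit mainly on endothelium, while VEGF-A comes largely from astrocytes and neurons. In mouse embryos Tbx1 has been described as acting in endothelial cells, with Flt4 among its targets.

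Gene expression was measured by QuantSeq, which reads the 3′ ends of polyadenylated RNA, in 15 brain libraries, 5 per group. Het_B12 were Tbx1+/- mice injected intraperitoneally with vitamin B12 (vB12) at 20 mg/kg in phosphate-buffered saline (PBS). Het_PBS were Tbx1+/- mice and WT_PBS were wild-type mice, both injected with PBS alone. Mice were 4 weeks old at the start, and all had 2 injections a week over 4 weeks. Tbx1 encodes a T-box transcription factor, and the comparisons ask what the loss of 1 copy does and what the vitamin does in heterozygotes. Vitamin-treated wild types were not analysed here, and the sources used here do not give which part of Tbx1 the mutant copy has lost. The labels call the tissue both brain hemisphere and whole brain. They name both Qiazol with an added precipitation and a column kit for RNA isolation, without saying which library had which.

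Total counts ran from 1683258 to 2746122 per library, and the floor of 3 reads stood at 1.09 to 1.78 CPM (reads scaled to library size). Tbx1 itself had 1 read in Het_B12, 3 in Het_PBS and 3 in WT_PBS, at or under the floor, so it does not check the genotype labels. On the first principal component, which held 18.0% of the variance, the Het_B12 libraries lay at 19.1 to 32.8. WT_PBS 3 lay near them at 17.8 and the other 9 saline libraries lay between -22.4 and -10.2. Het_PBS 5 stood apart on the second component. Het_B12 1 and Het_PBS 5 carry the same animal number in the labels. Reads of Gm42418, a locus that collects ribosomal RNA, made up 5.29% of counts in Het_B12, 8.52% in Het_PBS and 11.9% in WT_PBS. Some of the values below, but not the read ratios or marker sums, are therefore also given without named libraries. The labels do not state that every library is a mouse of its own, so a p-value here reflects the scatter among these libraries, which may be technical in part.

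The sequences just upstream of 4 of the genes are shown because the values below turn on them: Flt1, Kdr and Tek encode receptors, and Vegfa encodes the ligand that Flt1 and Kdr share. Each run is the 250 bases before an annotated RefSeq start in GRCm38.p6, written 5′ to 3′ on the gene's own strand. Capitals mark the letters CAGGAA or CCGGAA, forms of the site bound by ETS transcription factors, on either strand, so that a match on the opposite strand reads TTCCTG or TTCCGG. The windows are chr5:147726012-147726261 (minus strand) for Flt1, chr5:75978456-75978705 (minus strand) for Kdr, chr4:94739039-94739288 (plus strand) for Tek and chr17:46032378-46032627 (minus strand) for Vegfa.
Flt1: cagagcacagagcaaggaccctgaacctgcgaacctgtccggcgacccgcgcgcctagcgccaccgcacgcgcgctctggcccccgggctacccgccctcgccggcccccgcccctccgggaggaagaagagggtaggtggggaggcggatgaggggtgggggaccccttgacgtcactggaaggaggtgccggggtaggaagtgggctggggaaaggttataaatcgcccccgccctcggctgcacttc
Kdr: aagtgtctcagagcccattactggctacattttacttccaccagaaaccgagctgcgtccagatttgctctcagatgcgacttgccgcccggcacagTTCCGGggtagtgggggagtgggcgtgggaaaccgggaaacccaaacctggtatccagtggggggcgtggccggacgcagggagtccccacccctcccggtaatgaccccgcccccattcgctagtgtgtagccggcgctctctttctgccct
Tek: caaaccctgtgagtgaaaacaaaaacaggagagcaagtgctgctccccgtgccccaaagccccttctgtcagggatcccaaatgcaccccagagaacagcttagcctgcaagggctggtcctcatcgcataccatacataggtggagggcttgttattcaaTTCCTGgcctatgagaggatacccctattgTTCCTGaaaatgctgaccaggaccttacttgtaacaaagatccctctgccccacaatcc
Vegfa: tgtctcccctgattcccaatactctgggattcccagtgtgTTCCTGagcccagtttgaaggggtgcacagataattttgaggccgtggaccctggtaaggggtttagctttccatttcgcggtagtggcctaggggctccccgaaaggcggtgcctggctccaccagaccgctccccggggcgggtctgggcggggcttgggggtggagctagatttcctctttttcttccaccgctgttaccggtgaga

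The Kdr window held 1 match, CCGGAA on the opposite strand, whose first base lies 153 bases before the start. Tek held 2 matches to CAGGAA at 89 and 59 bases, and Vegfa held 1 at 210 bases. The Flt1 window held neither spelling, which says only that these letters are not in these 250 bases. RefSeq windows were matched for 9 of the 10 genes, and at least 1 spelling stood in those of 5 genes (Kdr, Nrp2, Tek, Tie1 and Vegfa). Over all 32851 windows of this length, 35.06% held one or the other. CAGGAA alone stood in 25.71% and CCGGAA in 12.03%. The core of the hypoxia response element, ACGTG, was found in 16.57% of all windows and, among these genes, in that of a second, internal Vegfa start. The GATA spelling AGATAA stood in 9.988% of windows and in the Vegfa window printed above. TGATAA stood in 7.942% and in no window of the 9 genes matched. A match is a string of letters and no evidence of binding.

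In saline-treated wild types the 10 genes spanned a wide range of levels. Because 3′ reads are taken once per transcript in principle, CPM, scaled by TMM factors, can be set side by side between genes of unequal length. Vegfb was the most abundant at 83.7 ± 15 CPM (SD, n = 5, as in all means below), at percentile 80.9 of the 11718 genes with enough reads to be tested. Nrp1 (32.4 ± 6.08 CPM), Nrp2 (24.3 ± 4.99), Vegfa (22.4 ± 6.08), Flt1 (19.7 ± 3.68) and Angpt1 (16.3 ± 5.78) followed, and neighbours in this order overlapped between libraries. Kdr stood at 7.69 ± 3.38 CPM, at percentile 18.1. Tek (2.33 ± 1.44), Tie1 (1.31 ± 1.04) and Flt4 were lowest. In Het_B12 Flt1 stood at rank 2 of the 10, behind Vegfb and overlapping it, against rank 4 in Het_PBS and rank 5 in WT_PBS. Of the 10 genes, 7 had enough reads to be tested across all genes, and Flt4, Tek and Tie1 did not.

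**Figure D1:**
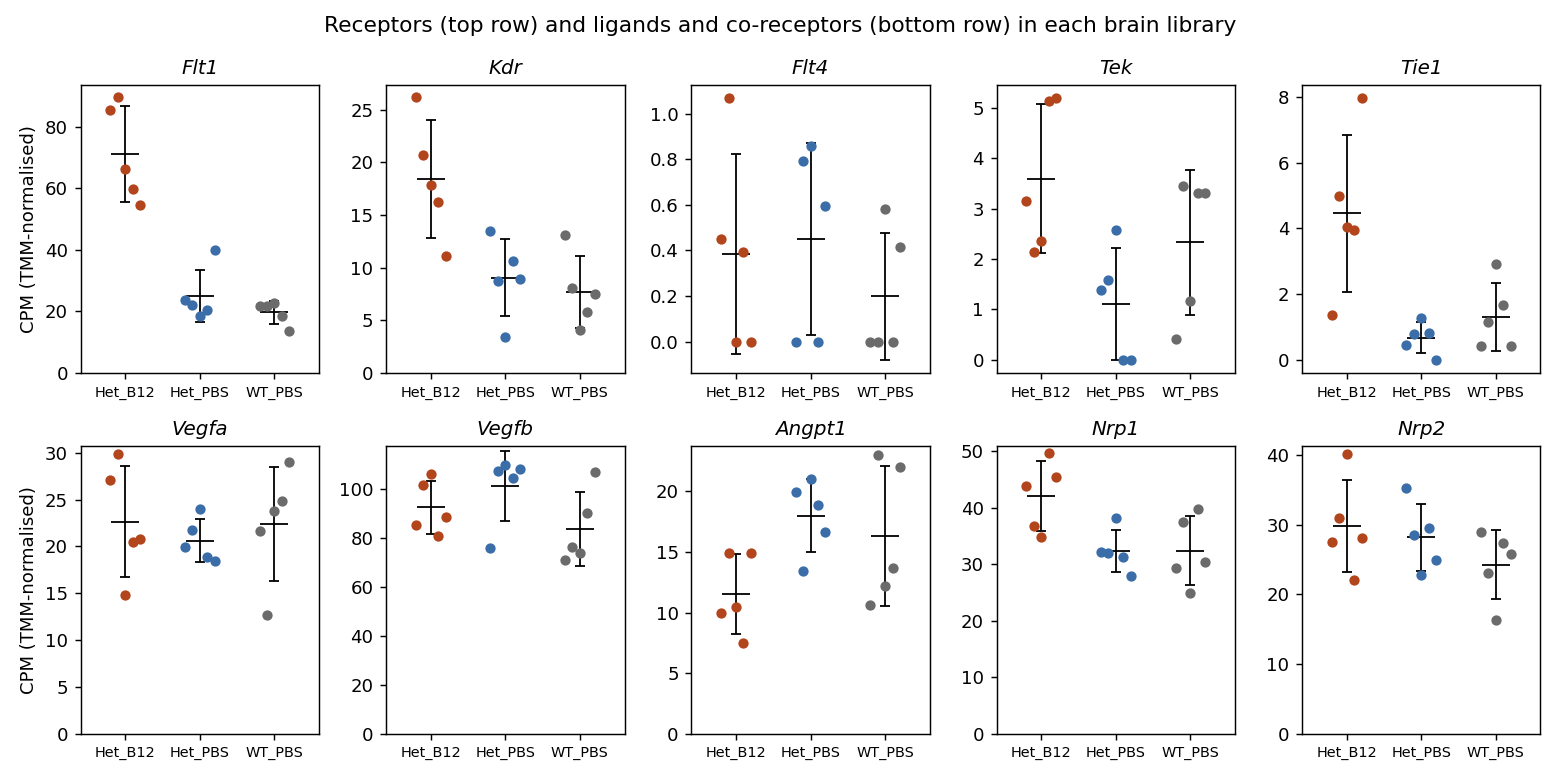
Level of each of the 10 genes in CPM (vertical axes, TMM-normalised, each from its own scale) in the 15 libraries by group; points are libraries in replicate order, and the bars show mean ± SD (n = 5). The Het_B12 libraries lie between 54.4 and 89.7 CPM for Flt1, above every saline library, while the Vegfa, Vegfb, Nrp1 and Nrp2 libraries of the groups overlap.

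The VEGF receptors Flt1 and Kdr were both higher in vitamin-treated heterozygotes, and of the 7 genes with enough reads to be tested Flt1 had the largest fold change. Flt1 (ENSMUSG00000029648, GRCm38 chromosome 5, 147561604 to 147726011, minus strand) had 85.4, 89.7, 66.1, 59.6 and 54.4 CPM in Het_B12. It had 23.7, 22.2, 18.4, 20.5 and 39.8 CPM in Het_PBS. In WT_PBS it had 21.6, 21.9, 22.6, 18.6 and 13.7 CPM. Every Het_B12 library was above every saline library. The lowest Het_B12 value was 1.37 times the highest Het_PBS value, that of Het_PBS 5, and 2.40 times the highest WT_PBS value. Flt1 averaged 71.1 ± 15.7 CPM in Het_B12, against 24.9 ± 8.55 in Het_PBS and 19.7 ± 3.68 in WT_PBS. The log2 fold change (± SE) of Het_B12 was 1.53 ± 0.19 over Het_PBS, a fold of 2.89, and 1.86 ± 0.20 over WT_PBS, a fold of 3.62. The number of reads behind these values was 945 in Het_B12, 267 in Het_PBS and 208 in WT_PBS. Gene counts do not separate the soluble form of VEGFR1 from the membrane-bound one.

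Kdr (ENSMUSG00000062960, chromosome 5, 75932827 to 75978458, minus strand) followed Flt1 in direction at a lower level. It had 26.2, 20.7, 17.9, 16.2 and 11.1 CPM in Het_B12. It had 13.5, 8.70, 3.43, 10.7 and 8.91 CPM in Het_PBS, and 13.1, 8.05, 4.06, 5.8 and 7.47 CPM in WT_PBS. The groups overlapped through 1 library, Het_B12 5, which lay below the highest library of each saline group. Kdr averaged 18.4 ± 5.58 CPM in Het_B12, 9.04 ± 3.67 in Het_PBS and 7.69 ± 3.38 in WT_PBS. The log2 fold change of Het_B12 was 1.02 ± 0.31 over Het_PBS, a fold of 2.02, and 1.23 ± 0.32 over WT_PBS.

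In edgeR's quasi-likelihood fit over all genes, with a call at a Benjamini-Hochberg adjusted p under 0.05, Flt1 and Kdr were the 2 called among the 7 tested genes in each comparison of Het_B12. Over all genes 7.26% were called for Het_B12 over Het_PBS, 3.47% on the higher side, and 7.33% for Het_B12 over WT_PBS, 3.22% on the higher side. Groups did not overlap, with Het_B12 higher, for 3.75% of genes against Het_PBS and 2.44% against WT_PBS. The 2 comparisons share the Het_B12 libraries. The genes were chosen with differences in Het_B12 known, so these calls, and whether they were kept below, are a description and no independent support. The Flt1 call was kept when any 1 library was left out, with a log2 fold change over Het_PBS of 1.43 to 1.74, and it was 1.52 when scaling left out Gm42418 and the mitochondrial genes. The Kdr call over Het_PBS was lost without any 1 of Het_B12 1, 2, 3 or 4 or Het_PBS 2, 3, 4 or 5, at 0.80 to 1.20 over all 10 fits. Over WT_PBS it was lost only without Het_B12 1, at 1.07. Without Het_B12 1 and Het_PBS 5 together, Flt1 stood at 1.67 and Kdr at 0.86 over Het_PBS, and Kdr was not called.

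The receptor for VEGF-C and VEGF-D was at the limit of detection. Flt4 (chromosome 11, 49609263 to 49652739, plus strand) had 5 reads in Het_B12, 5 in Het_PBS and 2 in WT_PBS, with at most 3 in any library. No difference in Flt4 was detectable at this depth.

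**Figure D2:**
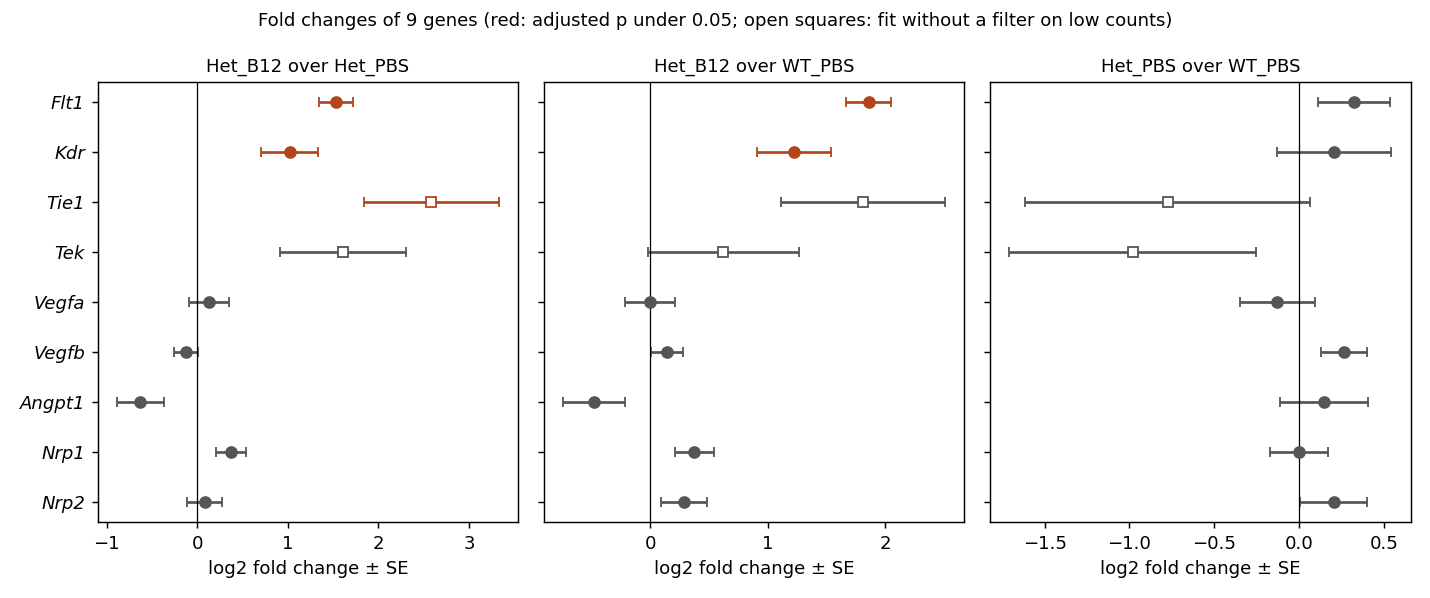
Log2 fold changes (horizontal axes) of 9 genes in the 3 comparisons, with bars of ± 1 SE; filled circles come from the fit of tested genes, open squares (Tie1, Tek) from the fit without a filter on low counts, and red marks an adjusted p under 0.05 over all genes of that fit. Flt1 lies at 1.53 and 1.86 in the comparisons of Het_B12, and no gene is red for Het_PBS over WT_PBS.

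The VEGF ligands were not called in any comparison. Vegfa (ENSMUSG00000023951, chromosome 17, 46016993 to 46032369, minus strand) had 27.1, 29.9, 14.8, 20.5 and 20.8 CPM in Het_B12. It had 20.0, 21.8, 24, 18.9 and 18.4 CPM in Het_PBS, and 21.6, 12.7, 23.8, 24.9 and 29.1 CPM in WT_PBS. All 3 groups overlapped, with means of 22.6 ± 5.95 CPM in Het_B12, 20.6 ± 2.30 in Het_PBS and 22.4 ± 6.08 in WT_PBS. The log2 fold change of Het_B12 over Het_PBS was 0.13 ± 0.22. Vegfb (ENSMUSG00000024962, chromosome 19, 6982473 to 6987651, minus strand), whose product binds VEGFR1 and not VEGFR2, had 85.4, 101, 106, 80.9 and 88.4 CPM in Het_B12. It had 75.8, 107, 110, 105 and 108 CPM in Het_PBS, and 71.0, 76.5, 73.7, 90.3 and 107 CPM in WT_PBS. The groups overlapped throughout, and Het_PBS 1 lay well below the other Het_PBS libraries. Its log2 fold change of Het_B12 over Het_PBS was -0.13 ± 0.13.

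The neuropilins, which act as co-receptors, overlapped between groups. Nrp1 (ENSMUSG00000025810, chromosome 8, 128358604 to 128503363, plus strand) had 43.8, 36.7, 34.8, 49.7 and 45.4 CPM in Het_B12. It had 32.1, 32.0, 38.2, 31.2 and 27.9 CPM in Het_PBS, and 29.4, 37.4, 25, 39.8 and 30.3 CPM in WT_PBS. In Het_B12, 3 of 5 libraries lay above all 10 saline libraries. The log2 fold change of Het_B12 was 0.38 ± 0.17 over Het_PBS and 0.37 ± 0.17 over WT_PBS, and neither was called over all genes. Nrp2 (ENSMUSG00000025969, chromosome 1, 62703285 to 62818695, plus strand), which also receives class 3 semaphorins, had 22.1 to 40.2 CPM in Het_B12, 22.7 to 35.3 in Het_PBS and 16.3 to 29.0 in WT_PBS. Its log2 fold change of Het_B12 over Het_PBS was 0.08 ± 0.19. An opposite-strand gene within Nrp2 had 20 reads over all libraries, 2.03% as many as Nrp2, and one within Angpt1 had 10, 1.89% as many. Whether reads were counted by strand is not stated in the labels.

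Both angiopoietin receptors were rare, and their read counts were highest in vitamin-treated heterozygotes. Tie1 (ENSMUSG00000033191, chromosome 4, 118471191 to 118490061, minus strand) had 3, 14, 12, 10 and 23 reads in Het_B12. It had 1, 2, 3, 2 and 0 reads in Het_PBS, and 1, 2, 5, 4 and 1 reads in WT_PBS. On the CPM scale Het_B12 and Het_PBS did not overlap, but only by a factor of 1.05. That gap lay between Het_B12 1 and Het_PBS 3, each with 3 reads, and came from library scaling. The share of genes without overlap was not counted for genes under the filter. Het_B12 1 fell within the range of WT_PBS. The sums were 62 reads in Het_B12, 8 in Het_PBS and 13 in WT_PBS. The CPM were 4.46 ± 2.38 in Het_B12, 0.673 ± 0.476 in Het_PBS and 1.31 ± 1.04 in WT_PBS. Tie1 did not pass the filter on low counts. In the fit without that filter its log2 fold change of Het_B12 over Het_PBS was 2.58 ± 0.74 and was called, where 2.09% of 20468 genes were called higher. Over WT_PBS it was 1.81 ± 0.70 and was not called, where 2.08% were called higher. Some fits with libraries left out kept Tie1, but only through the reads of Het_B12, so their calls add nothing to these values. Across the 9 fits that held Tie1 its log2 fold change over Het_PBS was 2.34 to 2.90. Fits that dropped Tie1 gave no value, so this range does not measure how stable the value is.

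Tek (ENSMUSG00000006386, chromosome 4, 94739289 to 94874976, plus strand), the receptor for angiopoietin 1, had 7, 6, 7, 13 and 15 reads in Het_B12. It had 3, 4, 6, 0 and 0 reads in Het_PBS, and 1, 6, 2, 8 and 8 reads in WT_PBS. The groups overlapped, and both libraries without a Tek read were Het_PBS. The level was 3.60 ± 1.48 CPM in Het_B12, 1.11 ± 1.11 in Het_PBS and 2.33 ± 1.44 in WT_PBS. Without the filter the log2 fold change of Het_B12 was 1.6 ± 0.69 over Het_PBS and 0.62 ± 0.65 over WT_PBS, and neither was called.

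The ligand of TIE2 lay on the other side. Angpt1 (ENSMUSG00000022309, chromosome 15, 42424723 to 42676977, minus strand) had 9.94, 15, 10.5, 7.5 and 14.9 CPM in Het_B12. It had 20.0, 13.5, 21, 18.9 and 16.6 CPM in Het_PBS, and 10.6, 23.0, 12.2, 13.7 and 22 CPM in WT_PBS. In Het_B12, 3 of 5 libraries were below every Het_PBS library, whereas all Het_B12 values lay below the highest WT_PBS value. The log2 fold change of Het_B12 was -0.63 ± 0.26 over Het_PBS and -0.48 ± 0.26 over WT_PBS, and neither was called.

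Ratios of reads within a library do not depend on how libraries are scaled, and they set receptor against ligand directly. Flt1 and Kdr together had 3.15 to 5.66 reads per Vegfa read in Het_B12, against 0.911 to 2.65 in Het_PBS and 0.729 to 2.36 in WT_PBS. The means were 4.06 ± 0.957 in Het_B12, 1.70 ± 0.637 in Het_PBS and 1.36 ± 0.645 in WT_PBS. Every Het_B12 library thus had more receptor reads per ligand read than any saline library. Tek and Tie1 together had 0.455 to 1.21 reads per Angpt1 read in Het_B12. They had 0 to 0.184 in Het_PBS and 0.0769 to 0.364 in WT_PBS, again without overlap. Tie1 reads enter this sum although TIE1 has no classical ligand of its own, and Tek levels alone overlapped between groups. The reads were few, with 48 of Tek and 62 of Tie1 in Het_B12. There were 13 and 8 in Het_PBS, and 25 and 13 in WT_PBS. The balance between the VEGF-A receptors overlapped: Flt1 had 3.26 to 4.91 reads per Kdr read in Het_B12, 1.76 to 5.38 in Het_PBS and 1.66 to 5.57 in WT_PBS. Vegfb had 3.15 to 7.16 reads per Vegfa read in Het_B12, 3.79 to 5.87 in Het_PBS and 3.10 to 6.05 in WT_PBS. These ratios hold values that led to the choice of the genes and are given without a test. How often ratios of other genes separate the groups was not counted.

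**Figure D3:**
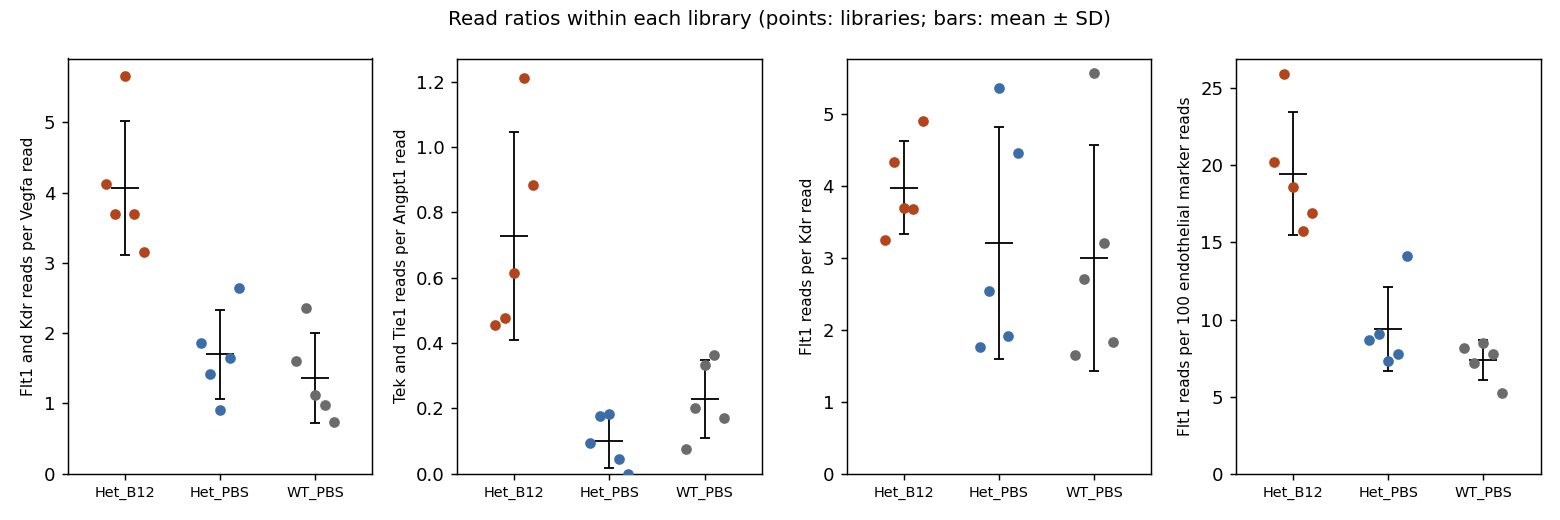
Ratios of reads within each library (vertical axes, no unit) by group. The panels are Flt1 and Kdr over Vegfa, Tek and Tie1 over Angpt1, and Flt1 over Kdr. The last panel is Flt1 per 100 reads of the 25 endothelial markers. Points are libraries and bars show mean ± SD (n = 5). The Het_B12 libraries lie above every saline library in all panels but that of Flt1 over Kdr (3.15 to 5.66, 0.455 to 1.21 and 15.7 to 25.9), and among them in that panel.

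Markers of endothelial cells, on which the receptors sit, were set beside these values. The list of markers was chosen with earlier results of these data known. The 25 endothelial markers summed to 322 to 423 CPM in Het_B12, 245 to 282 in Het_PBS and 241 to 304 in WT_PBS, so their sum too was higher in Het_B12 than in any saline library. Of the 21 with enough reads, 4 rose in Het_B12 over Het_PBS, 0 fell and 17 did not pass, with a median log2 fold change of 0.53 beside 0.01 over all genes tested. The 4 were the transporter gene of the blood-brain barrier Slco1a4 (1.38 ± 0.23), the tight junction gene Cldn5 (1.37 ± 0.35), the adhesion molecule gene Pecam1 (1.93 ± 0.55) and the glucose transporter gene Slc2a1 (0.74 ± 0.21). Without Het_B12 1, Het_B12 3 or Het_PBS 4, or without Het_B12 1 and Het_PBS 5 together, 2 rose. Pecam1 was called in 4 and Slc2a1 in 5 of the 10 fits that left out 1 library, and Slco1a4 and Cldn5 in all 10. Pecam1 was not called by DESeq2, and Cldn5, Pecam1 and Slc2a1 were not called without Het_B12 1 and Het_PBS 5 together. Over WT_PBS 5 rose and 0 fell, with a median of 0.45: Slco1a4, Cldn5 and Slc2a1 again, with Ly6c1 (0.91 ± 0.27) and Podxl (1.24 ± 0.38). Among markers that did not pass, Emcn (-1.48 ± 0.55 over Het_PBS, -1.66 ± 0.55 over WT_PBS) and Cd34 (-0.56 ± 0.20 over Het_PBS), named after their values were seen, lay on the lower side, and the fit called 1 marker lower over Het_PBS without Het_PBS 1 and 1 lower over WT_PBS without WT_PBS 4. The count of 5 was 3 without Het_B12 1, Het_B12 2, WT_PBS 1, WT_PBS 4 or WT_PBS 5. Cdh5, which encodes the endothelial cadherin and had too few reads to be tested, had 50 reads in Het_B12, 22 in Het_PBS and 14 in WT_PBS. None of the 25 markers was at 0 in all libraries.

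Reads of both receptors were also set against the summed reads of these markers. Flt1 had 15.7 to 25.9 reads per 100 endothelial marker reads in Het_B12, 7.33 to 14.1 in Het_PBS and 5.22 to 8.5 in WT_PBS, without overlap. Kdr had 3.44 to 6.20 in Het_B12, 1.36 to 4.95 in Het_PBS and 1.53 to 4.93 in WT_PBS, with overlap. The share of other genes whose ratio to these markers separates the groups was not counted. In bulk tissue fewer or more cells of a type and less or more RNA per cell cannot be told apart. The sum holds markers with small or negative fold changes, such as Egfl7 (0.28 ± 0.20 over Het_PBS) and Cd34. Over Het_PBS those of Slco1a4, Cldn5 and Pecam1, the markers with the smallest p-values of the list, were near or above that of Flt1. The median of the list was 0.53. Over WT_PBS they were 1.22 ± 0.23, 1.44 ± 0.36 and 1.04 ± 0.52 (Pecam1, not called), all below 1.86 ± 0.20 for Flt1. The part of endothelial content in the receptor values was not tested.

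Other genes of the pathway were counted from lists written from textbook knowledge, but with earlier results of these data known. The counts are to be read against the 3.47% of all genes called higher and 3.79% called lower over Het_PBS, and 3.22% and 4.11% over WT_PBS. Of the other genes of the angiopoietin system, 2 of 5 could be tested and 1 rose in Het_B12. It was Ptprb, the endothelial phosphatase that acts on TIE2, with 34.6 ± 5.03 CPM in Het_B12, 11.6 ± 5.20 in Het_PBS and 12 ± 4.12 in WT_PBS. Its log2 fold change was 1.58 ± 0.25 over Het_PBS and 1.52 ± 0.25 over WT_PBS. Angpt2, the context-dependent antagonist of TIE2, had 7 reads in Het_B12, 17 in Het_PBS and 15 in WT_PBS, too few to test, and it overlaps a gene with 634 reads, so its counts are uncertain. Among the other VEGF family ligands only Pgf, whose product binds VEGFR1, could be tested. It had 5.14 ± 2.04 CPM in Het_B12, 4.88 ± 1.84 in Het_PBS and 6.30 ± 3.49 in WT_PBS and was not called.

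The genes that carry the signal onward were not called. Of 27 tested genes of VEGF receptor signalling, 0 rose and 0 fell in Het_B12 over Het_PBS, with a median log2 fold change of -0.01 beside 0.01 over all genes, and 0 of 27 over WT_PBS. Of 13 endothelial transcription factors and 4 Notch genes of vessels, 0 were called in any comparison. Of 12 partners of neuropilins (semaphorins, plexins and the adaptor gene Gipc1), 0 were called over Het_PBS, and over WT_PBS 1 fell, Sema3d (-1.30 ± 0.42). That call lay just under the threshold (edgeR adjusted p = 0.04998), at 3.33 ± 0.96 CPM in Het_B12 and 8.12 ± 4.42 in WT_PBS. Of 5 tested genes induced by VEGF or typical of tip cells, 1 rose, Unc5b, a netrin receptor of endothelium. It had 39.4 ± 5.21 CPM in Het_B12, 23.4 ± 3.25 in Het_PBS and 23.1 ± 6.08 in WT_PBS, with a log2 fold change of 0.74 ± 0.18 over Het_PBS. Of 12 hypoxia genes, many of them targets of the factor that also drives Vegfa, 0 rose and 1 fell over Het_PBS, Vhl (-0.65 ± 0.16), which encodes the ubiquitin ligase subunit that marks that factor for breakdown. Over WT_PBS 0 of the 12 were called, with Vhl at -0.24 ± 0.16.

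Markers of the other cells in the tissue were counted in the same way. None of the 5 tested mural cell markers was called, and their list summed to 123 to 149 CPM in Het_B12, 102 to 119 in Het_PBS and 91.2 to 152 in WT_PBS. Of 16 astrocyte markers 10 fell in Het_B12 over Het_PBS and 0 rose, among them S100b (-0.82 ± 0.10), Gjb6 (-0.80 ± 0.15), Clu (-0.51 ± 0.10) and Aldoc (-0.55 ± 0.12). Their sum was 5551 to 6509 CPM in Het_B12, 8267 to 9361 in Het_PBS and 6767 to 9258 in WT_PBS. Of 13 microglia markers 5 fell and 0 rose, among them Ctss (-1.12 ± 0.16), C1qa (-1.0 ± 0.15), C1qb (-0.80 ± 0.16) and Cx3cr1 (-0.57 ± 0.12). Of 10 neuron markers 1 rose, Rbfox3 (0.35 ± 0.10), of 10 oligodendrocyte markers 1 fell, Mobp (-0.68 ± 0.13), and of 6 precursor markers 0 were called. All 5 erythroid genes fell over Het_PBS, including Hbb-bt (-2.04 ± 0.31), and 0 were called over WT_PBS. Their sum was 496 to 973 CPM in Het_B12, 773 to 4959.9 in Het_PBS and 483 to 1289 in WT_PBS, most uneven in Het_PBS. Of 9 meningeal markers 4 fell, among them Mgp (-1.15 ± 0.22) and Ptgds (-0.68 ± 0.14), and of 7 choroid plexus markers 0 were called. The part of these shifts in the values of the 10 genes was not tested.

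**Figure D4:**
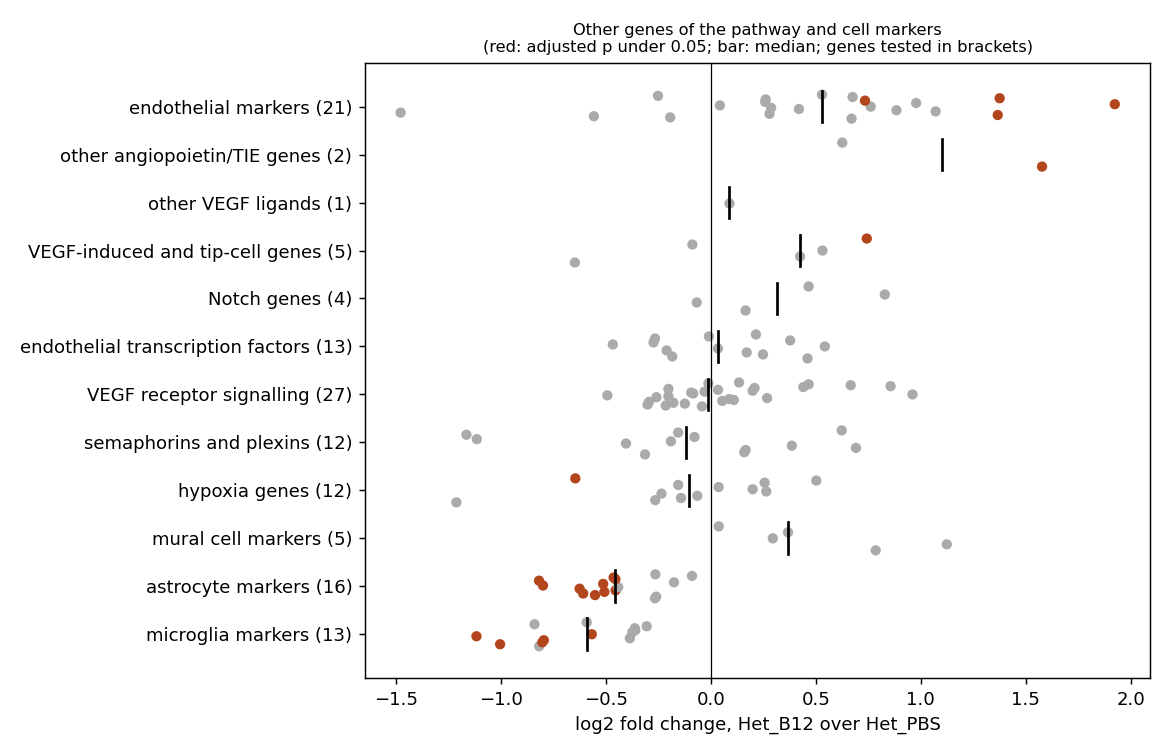
Log2 fold change of Het_B12 over Het_PBS (horizontal axis) for each tested gene of 12 lists, with the number tested in brackets; red points passed an adjusted p under 0.05 over all genes, grey points did not, and the black bar is the list's median. Endothelial markers have a median of 0.53, VEGF receptor signalling genes lie around -0.01, and astrocyte and microglia markers lie below 0.

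The effect of genotype under saline, Het_PBS over WT_PBS, was tested. Whether its values also bore on the choice of the 10 genes is not recorded, and if they did, the p-values below are not independent of it. None of the 7 tested genes passed in edgeR's quasi-likelihood test. Over the 11718 genes kept by the filter 0% were called, against 879 (7.5%) at an unadjusted p under 0.05, and the DESeq2 and limma-voom fits called 0. Without the filter 40 of 20468 genes were called, none of them among the 10. None of the 7 had an unadjusted p under 0.05. Flt1 was at 24.9 ± 8.55 CPM in Het_PBS and 19.7 ± 3.68 in WT_PBS, a log2 fold change of 0.33 ± 0.21 (95% interval -0.10 to 0.75, edgeR adjusted p = 0.761). Kdr was at 0.21 ± 0.34 (95% interval -0.48 to 0.89, adjusted p = 0.933). Vegfb came nearest to the threshold, with 101 ± 14.3 CPM in Het_PBS and 83.7 ± 15 in WT_PBS and a log2 fold change of 0.27 ± 0.14 (95% interval -0.01 to 0.54, adjusted p = 0.659). The other 4 lay between -0.13 (Vegfa, adjusted p = 0.941) and 0.21 (Nrp2, adjusted p = 0.866). In the fit without a filter, Tek stood at -0.98 ± 0.73 (adjusted p = 0.754) and Tie1 at -0.77 ± 0.84 (adjusted p = 0.818). Both lay on the lower side and neither was called. In that fit 40 of 20468 genes were called on either side, and 0.147% of genes were called higher. Tek had 13 reads in Het_PBS and 25 in WT_PBS, and Tie1 had 8 reads in Het_PBS and 13 in WT_PBS. The intervals leave room for changes of moderate size in Flt1 and Kdr, and the SEs of Tek and Tie1 leave room for larger ones. The ratio of Flt1 to Kdr reads was 3.21 ± 1.62 in Het_PBS and 3.00 ± 1.57 in WT_PBS, a log2 difference of 0.10 (exact two-sided permutation test, p = 0.849, n = 5 per group; the smallest p this design allows is 0.00794). None of the pathway and cell marker lists held a called gene in this comparison.

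Within groups the 7 tested genes did not vary as one block. Over the 21 pairs, the Pearson correlation of log2 CPM deviations from the group means across 15 libraries was above 0 in 7 and ran from -0.42 for Flt1 with Nrp1 to 0.59 for Kdr with Nrp2. Flt1 and Kdr stood at 0.37. All such values share the depth and makeup of the library and are descriptions. Among 6575 genes (6576 for Kdr and Angpt1) with a mean of at least 20 CPM, the deviations most like those of Flt1 were those of Rbbp7 (0.94), Rpl35a (0.90) and Eif4h (0.89). For Kdr they were Med1 (0.90), Spred1 (0.88) and Tmem63b (0.86). The closest gene was Acbd3 for Nrp1 (0.96), Pdk3 for Nrp2 (0.85), Eef1g for Vegfb (0.91) and Urod for Angpt1 (0.85), and Ccnt1 (0.83) and Tle4 (0.81) were among the 3 closest to Vegfa.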

How the data were processed

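The deposited values are raw read counts per gene, with 1 column per library, from 15 QuantSeq 3′ libraries of mouse brain. Per the submitters' processing notes the authors used STAR, HTSeq and edgeR with build mm10; the labels add no versions, annotation or strand setting. Of 30386 identifiers 9918 had 0 counts everywhere and 30271 matched GENCODE M21 (GRCm38), which gave coordinates. Groups came from the sample titles.

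Counts were fitted in edgeR 4.0.16 (R 4.3.3): filterByExpr kept 11718 genes, scaled by TMM, with 1 mean per group over 15 libraries and no covariates, tested by quasi-likelihood and adjusted by Benjamini-Hochberg over all genes at 0.05. SEs derive from the F statistic, and 95% intervals use 37.8 degrees of freedom. CPM are TMM-normalised. The script was tested on simulated counts. The 10 genes, the lists, the tests and the rule for named genes (every gene of the set, up to 4 called members per list with the smallest p, a few defining genes, and the 3 genes most alike in deviation) were chosen with earlier results of these data known. One gene that the last part selects is not reported here, and for the genes other than Flt1, Kdr and Vegfa the closest is given. Promoter windows are those of RefSeq, GRCm38.p6. Precision is set by totals of 1683258 to 2746122 counts; floors cover counting error only. Alternatives used limma 3.58.1, DESeq2 1.42.0, other scalings and filters, 2-group fits, a replicate block and libraries left out.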

Additional observations from a re-analysis of the deposited data

Results flagged for a closer look

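Values were compared within 39 groups of 5 libraries by the gap of the outermost library to its neighbour as a share of the group's range, and chance alone marks about 5% of such groups. The first of 2 marked values was Flt1 in Het_PBS 5, at 39.8 CPM, where the other Het_PBS libraries had 18.4 to 23.7 CPM and the gap took 0.753 of the range against a critical value of 0.71. That library had the smallest total, stood apart on the second principal component and shares its animal number with Het_B12 1. Without it the log2 fold change of Flt1 in Het_B12 over Het_PBS was 1.74, and in Het_PBS over WT_PBS it was 0.12. The second was Vegfb in Het_PBS 1, at 75.8 CPM, below the other Het_PBS libraries, with a gap share of 0.849. The causes were not tested.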

How the results depend on the processing

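Of 883 values recomputed under other settings, 802 kept their direction and side of the threshold, or moved little, and Flt1 was called in both comparisons of Het_B12 under every alternative run. With a mean count of at least 50, Kdr could not be tested and 1 gene of the set was called in each. Over all genes, 437 were called for Het_B12 over Het_PBS without Het_B12 1 and Het_PBS 5 together (551 without Het_B12 1), 1390 for Het_B12 over WT_PBS without WT_PBS 3 and Het_PBS 5, and for Het_PBS over WT_PBS 40 with no filter, 1 without WT_PBS 3 and Het_PBS 5, and 2 without Het_B12 1 and Het_PBS 5. Leaving out 1 library gave 1 to 3 genes of the set called for Het_B12 over Het_PBS and 2 to 3 over WT_PBS. These counts take in Tie1 in fits that kept it only through its Het_B12 reads, and such calls add nothing. Over WT_PBS without Het_B12 1, where the Kdr call was lost, Flt1 and Tie1 were called. Over all genes 551 to 743 were called for Het_B12 over Het_PBS, 449 to 1270 for Het_B12 over WT_PBS and 0 to 14 for Het_PBS over WT_PBS. For Het_B12 over WT_PBS the count was 449 to 515 without Het_B12 1, Het_B12 2, WT_PBS 1 or WT_PBS 5. Values near 0 changed sign. Vegfa in Het_B12 over WT_PBS was 0.0055 with upper-quartile factors, 0.0055 with no filter, 0.025 with a mean of at least 50 and 0.0070 without WT_PBS 3 and Het_PBS 5. Nrp1 in Het_PBS over WT_PBS was 0.0074 with no filter, 0.012 with limma-voom, 0.011 with the replicate block, 0.042 without Het_B12 1 and Het_PBS 5, and 0.0014 with only those 2 groups fitted. With 1 library left out, Vegfa ran from -0.14 to 0.12, Nrp1 from -0.070 to 0.087, Nrp2 in Het_B12 over Het_PBS from -0.054 to 0.17 and the log2 Flt1 to Kdr ratio in Het_PBS over WT_PBS from -0.11 to 0.35. The cause was not tested. Libraries with the same replicate number did not deviate together (correlations -0.0933 to 0.106), but correlations over all genes cannot exclude a pairing. Het_B12 1 and Het_PBS 5, which share an animal number, stood at -0.00017. That value does not settle whether both came from 1 mouse. The replicate block left 2, 2 and 0 genes of the set called, and the ratio at 0.10, with no p given because 5 pairs cannot reach the threshold. Other scalings moved the median of all genes by under 0.01. Depth limits Tek, Tie1 and Flt4, and the labels give no batch or date.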

Other observations

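Of the VEGF receptor 3 ligands and genes around the set that had too few reads to be tested, Vegfd had 23 reads in Het_B12, 5 in Het_PBS and 14 in WT_PBS, and Vegfc had 9 in Het_B12, 6 in Het_PBS and 9 in WT_PBS. Dll4, a Notch ligand of tip cells, had 14 reads in Het_B12, 9 in Het_PBS and 1 in WT_PBS, and Esm1, a gene of tip cells, had 4 in Het_B12, 9 in Het_PBS and 11 in WT_PBS. Apln, the ligand of the apelin receptor on vessels, had 20.0 ± 6.66 CPM in Het_B12, 31.2 ± 10.5 in Het_PBS and 25.8 ± 5.38 in WT_PBS (SD, n = 5) and was not called.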
